A study of Mus musculus with 12 samples.

Results

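The baseline transcriptome of the mouse fetal testis was described from the control libraries of F1 and F3 only, that is 6 of the 12 RNA libraries of the series, 3 from each generation, and the question was which genes had the same level in both generations and which did not. The libraries were chosen by their labels and not by a measured value, although earlier results of these data were known. In the study, outbred Swiss mice (RjOrl) were used to follow thiacloprid (*thia*), a neonicotinoid insecticide, over generations. Pregnant F0 females received *thia* at 6 mg/kg/day or the vehicle, olive oil, by gavage from E6.5 to E15.5. The F1 control libraries come from the embryos of the vehicle-treated females, so that both their dams and the embryos in the womb received olive oil. The F3 control libraries come from the vehicle line after breeding through the males with unrelated untreated females, so that the F3 embryos and their dams received nothing. Neither group was exposed to *thia*. Testes were taken at E15.5 in all libraries, and each library was made from a pool of the testes of 3 embryos. The study ran the breeding experiment 2 times, and which pool came from which run, or from how many dams, was not given in the sources used here, so the p-values measure the spread between pools. The labels give no date, batch or sequencing run, so generation cannot be told apart from any difference in dissection, extraction, library preparation or sequencing between the groups.

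At E15.5 the mouse testis holds cords of Sertoli cells that enclose the germ cells, and male germ cells at this stage stop dividing and rebuild their DNA methylation. Between the cords lie fetal Leydig cells, which make androgens, with stromal progenitors, peritubular cells, macrophages and blood vessels. The vessels carry embryonic blood, in which red cells of the yolk sac, with embryonic globins, are being replaced by red cells of the fetal liver, with adult globins.

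Totals of 25081647 to 56638738 counts were assigned to genes in the F1 control libraries and 35216128 to 40614301 in those of F3. Levels are given as TMM-scaled CPM (counts scaled to the library total and corrected for composition), listed for libraries 1, 2 and 3 of each group, and 1 CPM corresponds to 27.4 to 61.5 counts. The libraries of a group resembled each other more than those of the other group: the correlation of log2 CPM across genes was 0.9875 to 0.9912 within F1, 0.9869 to 0.9908 within F3 and 0.959 to 0.983 between them. The median absolute log2 difference between libraries was 0.147 to 0.234 within F1, 0.156 to 0.189 within F3 and 0.271 to 0.427 between groups, and no library duplicated another. Principal component 1, with 75.4% of the variance, separated F1 from F3. The 10 most abundant genes took 3.94 to 4.91% of the counts in F1 and 10.5 to 11.5% in F3, and the 4 adult globins alone took 0.541 to 1.55% in F1 and 5.60 to 5.92% in F3.

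F3 control was compared with F1 control by the quasi-likelihood test of edgeR over the 18588 genes that passed its low-count filter, at an adjusted p of 0.05 (Benjamini-Hochberg). The test called 6392 genes (34.4%), of which 3200 (17.2%) were higher in F3 and 3192 (17.2%) were lower. Among them, 1070 higher genes and 485 lower genes changed at least 2-fold, and the median log2 fold change was 0.74 for the higher genes and −0.59 for the lower ones. Libraries of the 2 groups did not overlap for 9275 genes (49.9%). A gene was called stable if the 95% interval of its log2 fold change lay within −0.5 to 0.5, and 5409 genes (29.1%) were. Of these, 216 were also called different, with small changes measured precisely, and 7003 genes were neither stable nor called. With upper quartile scaling the split was 3846 higher and 2521 lower, and without F1 control replicate 2 the test called 4307 genes, 2191 higher and 2116 lower.

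**Figure D1:**
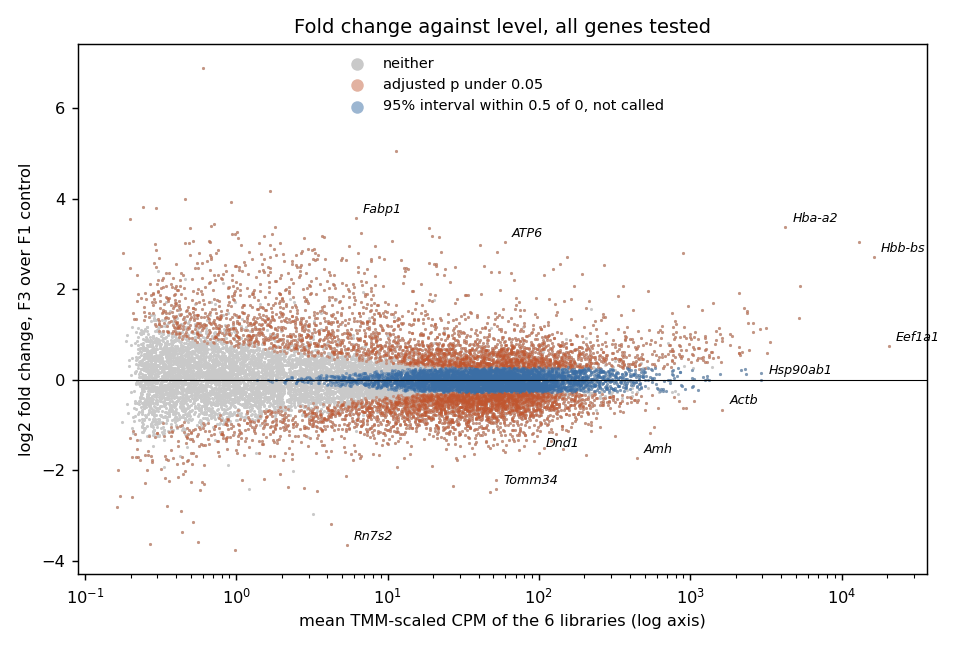
Log2 fold change of F3 control over F1 control (vertical axis) against mean CPM on a log axis (horizontal axis) for the 18588 genes tested, with called genes and stable genes that were not called in separate colours and some genes named. Called genes appear at all levels, stable genes lie mostly above 5 CPM, and 65 of the 86 genes of 1000 CPM or more were called higher in F3.

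The ranking of genes by level was largely kept between the generations. The mean levels of F1 and F3 correlated across genes at r = 0.9815 (log2(CPM + 1)), where genes are not independent replicates. Of the 20, 100 and 1000 genes with the highest CPM per kb of transcript, 15, 90 and 867 were shared. The leading genes per length in F1 were *Eef1a1*, the translation elongation factor, at 8545 CPM per kb, the adult β-globin *Hbb-bs* at 6922, the adult α-globin *Hba-a1* at 4046 and the ribosomal protein gene *Rps14* at 3425. In F3 these 4 genes led again in another order, with *Hbb-bs* at 45160, *Hba-a1* at 33510, *Rps14* at 14440 and *Eef1a1* at 14280 CPM per kb.

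The markers of the testis checked the tissue label in both generations. Per kb of transcript, the Leydig cell enzyme *Cyp17a1* stood at 740.5 CPM in F1 and 736.1 in F3, the germ cell gene *Mael* at 219.3 and 206.6, and the stromal collagen *Col3a1* at 502.2 and 556.8. The Sertoli cell protease gene *Ctsl* was at 346.0 and 288.5 CPM per kb, and the smooth muscle actin *Acta2* at 255.9 and 346.0. The Sertoli cell hormone gene *Amh* was at 407.8 and 122.7 CPM per kb. Of 28 Sertoli markers 15 were called lower in F3 and 1 higher, so these group means show presence and not equal levels. *Xist*, the transcript of the inactive X in females, was between 0.376 and 1.51 CPM in the 6 libraries, and the Y-linked gene *Ddx3y* was at 84.0 to 134 CPM in F1 and 89.3 to 93.1 in F3. Markers of testis cells were therefore present in both generations, and low *Xist* with *Ddx3y* held in each of the 6 libraries.

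Genes of red blood cells were higher in F3 and included some of the largest rises. All 4 adult globins and 34 of the 38 other erythroid genes rose, none fell, and the median log2 fold changes were 2.88 and 1.88, against −0.01 for all genes tested. In bulk tissue, fewer cells of a type and less RNA per cell cannot be told apart, and neither can blood left in a dissected testis and blood cells within it. Promoters and a microRNA of this group are shown first, because these genes moved together. The proximal promoters below are RefSeq sequences of GRCm38.p6, 250 bases before to 50 after the start, on the strand of the gene, for *Alas2* (chrX:150547167-150547466, plus strand), *Hba-a1* (chr11:32283422-32283721, plus strand) and *Hbb-bs* (chr7:103827879-103828178, minus strand). Capitals mark the exact strings AGATAA, a form of the motif of GATA factors, and CCACCC, a string related to the motif of the erythroid factor KLF1, on either strand. Other forms of these motifs, such as tgataa in *Hba-a1* and ccacaccc in *Hbb-bs*, were not searched for.
Alas2: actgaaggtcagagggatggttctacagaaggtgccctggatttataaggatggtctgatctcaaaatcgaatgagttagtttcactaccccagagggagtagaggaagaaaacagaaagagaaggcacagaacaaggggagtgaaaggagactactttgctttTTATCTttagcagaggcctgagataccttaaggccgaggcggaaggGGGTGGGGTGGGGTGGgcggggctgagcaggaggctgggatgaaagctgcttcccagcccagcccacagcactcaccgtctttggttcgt
Hba-a1: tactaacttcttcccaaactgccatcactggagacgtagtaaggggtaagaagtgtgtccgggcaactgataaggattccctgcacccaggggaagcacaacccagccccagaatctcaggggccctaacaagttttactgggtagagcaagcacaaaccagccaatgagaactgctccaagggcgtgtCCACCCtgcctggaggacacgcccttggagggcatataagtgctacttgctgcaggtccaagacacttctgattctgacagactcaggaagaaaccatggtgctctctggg
Hbb-bs: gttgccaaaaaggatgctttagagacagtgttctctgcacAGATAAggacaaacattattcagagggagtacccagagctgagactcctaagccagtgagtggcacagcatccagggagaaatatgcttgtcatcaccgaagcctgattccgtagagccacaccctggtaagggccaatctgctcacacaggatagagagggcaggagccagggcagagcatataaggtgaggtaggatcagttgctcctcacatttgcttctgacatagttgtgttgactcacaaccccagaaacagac
miR-451a: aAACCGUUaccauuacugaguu
In the *Alas2* promoter AGATAA occurred 1 time and CCACCC 3 times, with neighbouring matches sharing a base, in that of *Hba-a1* 0 and 1 times, and in that of *Hbb-bs* 1 and 0 times. AGATAA was present in 10 of the 27 erythroid genes with a promoter in the RefSeq table (37.0%) against 11.4% of all 27025 promoters and 7.43% of those of the genes tested. CCACCC was present in 12 (44.4%), against 30.9% of all promoters and 37.3% of those of the genes tested, and in 12 of the 24 hepatocyte gene promoters and 8 of the 17 Sertoli cell marker promoters in the same table. Of the 4 adult globin promoters 1 held AGATAA and 3 held CCACCC. These matches describe letters and not binding sites. The last sequence is the mature miR-451a (RefSeq, chr11:78073186-78073207, plus strand), with the seed, bases 2 to 8, in capitals.

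The adult globin genes, which code for chains of haemoglobin, all rose, and each covered a wider fold range between libraries in F1 than in F3. *Hba-a1* was at 4603, 2254 and 1628 CPM in the F1 libraries and at 24490, 22410 and 23340 CPM in those of F3. The F1 libraries differed among themselves more than those of F3, and the groups lay far apart, with a log2 fold change of 3.05 ± 0.33 (SE, adjusted p = 0.000312). *Hba-a2* rose from 1178, 521 and 540 CPM to 7265, 7544 and 8422 CPM (log2 fold change 3.38 ± 0.30, adjusted p = 0.000163). *Hba-a1* and *Hba-a2* (chromosome 11, 32283511 to 32284465 and 32296489 to 32297298) are near-identical, as are *Hbb-bs* and *Hbb-bt* (chromosome 7), so that the split of reads within each pair is uncertain. *Hbb-bs* rose from 7047, 3408 and 2586 CPM to 28890, 27230 and 28940 CPM (log2 fold change 2.71 ± 0.31, adjusted p = 0.000444). *Hbb-bt* was at 1769, 650 and 202 CPM in F1 and 3608, 2814 and 3505 CPM in F3 (1.92 ± 0.58, adjusted p = 0.028), and its call was lost without F1 control replicate 2 or F3 control replicate 1.

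**Figure D2:**
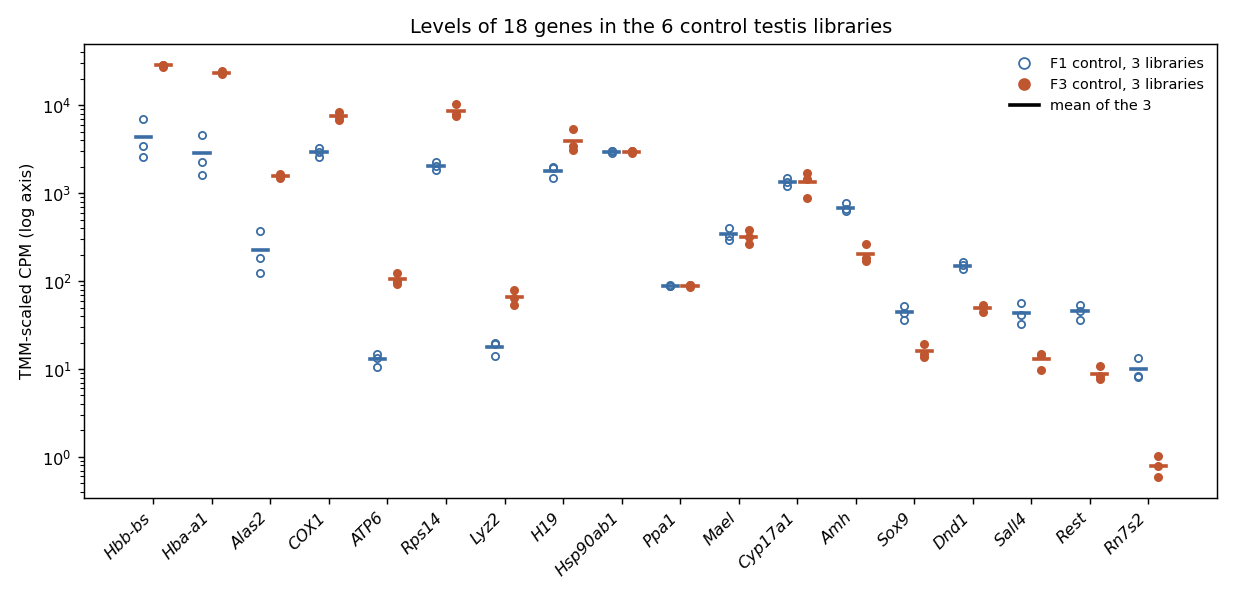
TMM-scaled CPM on a log axis in each of the 3 F1 control and 3 F3 control libraries (points) for 18 genes, with a bar at the mean. *Hbb-bs*, *Hba-a1*, *COX1* and *ATP6* of the F3 libraries sit above all F1 libraries, *Amh* sits below, and *Hsp90ab1* stays between 2866 and 3012 CPM throughout.

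The embryonic globins, which mark the older yolk sac red cells, had log2 fold changes of 0.93 to 1.37, and 1 of the 3 was called. *Hbb-y* was at 240, 147 and 33.4 CPM in F1 and 328, 117 and 358 CPM in F3, and the groups overlapped (0.93 ± 0.58, adjusted p = 0.244). *Hba-x*, at 59.1, 37.9 and 8.72 against 96.4, 50.3 and 84.7 CPM, was not called either (1.12 ± 0.50, adjusted p = 0.114). *Hbb-bh1* was the one called, from 4.04, 2.26 and 1.17 to 6.97, 4.43 and 8.23 CPM (1.37 ± 0.38, adjusted p = 0.0215), a call lost on leaving out any of 4 libraries. For all 3 genes, F1 control replicate 3 was the lowest library.

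Other genes of the red cell spanned its functions. *Alas2*, the first enzyme of haem synthesis in red cells, rose from 368, 181 and 125 CPM to 1564, 1478 and 1657 CPM (log2 fold change 2.80 ± 0.33, adjusted p = 0.000476). *Slc4a1*, the anion exchanger band 3 of the red cell membrane, rose from 118, 67.7 and 50.6 to 382, 372 and 627 CPM (2.54 ± 0.31, adjusted p = 0.000547). In these genes, as in the adult globins, F1 control replicate 1 was the highest F1 library and still below every F3 library. *Klf1*, the erythroid transcription factor, was at 6.33, 2.65 and 2.70 CPM in F1 and 15.6, 11.8 and 37.7 CPM in F3 (2.46 ± 0.46, adjusted p = 0.00363). *Bpgm*, which makes the 2,3-bisphosphoglycerate that tunes oxygen release, rose from 91.0, 53.6 and 46.5 to 308, 312 and 345 CPM (2.33 ± 0.22, adjusted p = 0.000205). The primary transcript region of *Mir451a*, a microRNA of red cell maturation, was counted at 0.266, 0.146 and 0.0365 CPM in F1 and 0.678, 0.671 and 0.751 CPM in F3 (2.08 ± 0.45, adjusted p = 0.00672), which are few counts. *Ank1*, *Sptb*, *Tfrc* and *Bcl11a*, the members that did not pass, had log2 fold changes of 0.29 to 0.60 and also act in other cells.

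Transcripts of mitochondrial DNA were higher in F3 without exception. All 13 protein genes of the mitochondrial genome rose, with log2 fold changes of 1.37 to 3.04, a median of 1.70 and adjusted p of at most 0.00168. Their summed level was 6408, 7702 and 7054 CPM in F1 and 21760, 19410 and 18170 CPM in F3. *COX1*, the catalytic subunit of cytochrome oxidase, rose from 2575, 3244 and 2911 to 8376, 7276 and 6843 CPM (1.37 ± 0.12, adjusted p = 0.000167). *ATP6*, an ATP synthase subunit (chromosome M, 7927 to 8607), rose from 10.7, 13.3 and 14.7 to 124, 100.7 and 91.9 CPM (3.04 ± 0.15, adjusted p = 5.71e-05), the lowest adjusted p of all genes. Its reading frame overlaps that of *ATP8*, so reads shared by both may be left out of its count. *ND1*, a complex I subunit, rose from 1063, 1175 and 1130 to 3689, 3300 and 3196 CPM (1.60 ± 0.10, adjusted p = 0.000108).

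Nuclear genes of the respiratory chain moved the same way by less. Of 37 complex I subunits 27 rose and none fell (median 0.45), and of 41 subunits of complexes II to V 29 rose and none fell (median 0.50). *Ndufb4*, a small membrane subunit of complex I, rose from 50.04, 50.6 and 43.2 to 105, 108 and 104 CPM (1.13 ± 0.09, adjusted p = 0.000131). *Usmg5*, a small ATP synthase subunit, rose from 72.1, 69.4 and 67.7 to 168, 152 and 164 CPM (1.21 ± 0.08, adjusted p = 0.000108). The large catalytic subunit of complex II, *Sdha*, was stable at 263 to 269 CPM in F1 and 258 to 280 CPM in F3. These lists consist mostly of short transcripts, and with the trend in transcript length removed they held 12 higher and 3 lower (complex I) and 15 higher and 3 lower (complexes II to V).

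Genes of the cytoplasmic ribosome showed the widest shared rise among abundant genes. Of 87 ribosomal protein genes 76 rose and 2 fell, with a median of 0.77, and their summed level was 70410, 65110 and 56080 CPM in F1 and 125700, 109200 and 114900 CPM in F3. *Rps14* rose from 2282, 2016 and 1836 to 10280, 8028 and 7546 CPM (2.08 ± 0.14, adjusted p = 0.000108). *Rpl9* rose from 1310, 1266 and 1112 to 3842, 3375 and 3329 CPM (1.51 ± 0.11, adjusted p = 0.000108). The 2 that fell were *Rps4l* (log2 fold change −0.56) and *Rpl21*, which was named after its values were seen. *Rpl21* was at 13.9, 120 and 123 CPM in F1 and 16.49, 19.1 and 19.2 CPM in F3, so 1 F1 library lay below all F3 libraries. Processed pseudogenes resemble many of these genes, and reads of a gene and its copies may be assigned to either. Mitochondrial ribosomal protein genes rose less, 43 of 78 with 1 lower, a median of 0.32 and 34 of them stable. Translation factors were called as well, *Eef1a1* from 16140, 15590 and 14260 to 27820, 25190 and 23860 CPM (0.74 ± 0.10, adjusted p = 0.000936) and *Eef2* from 2810, 2684 and 2239 to 4251, 3546 and 3790 CPM (0.58 ± 0.12, adjusted p = 0.00486). With the length trend removed, 54 of the cytoplasmic ribosomal protein genes were higher and 3 lower, and 24 of the mitochondrial ones were higher and 16 lower.

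**Figure D3:**
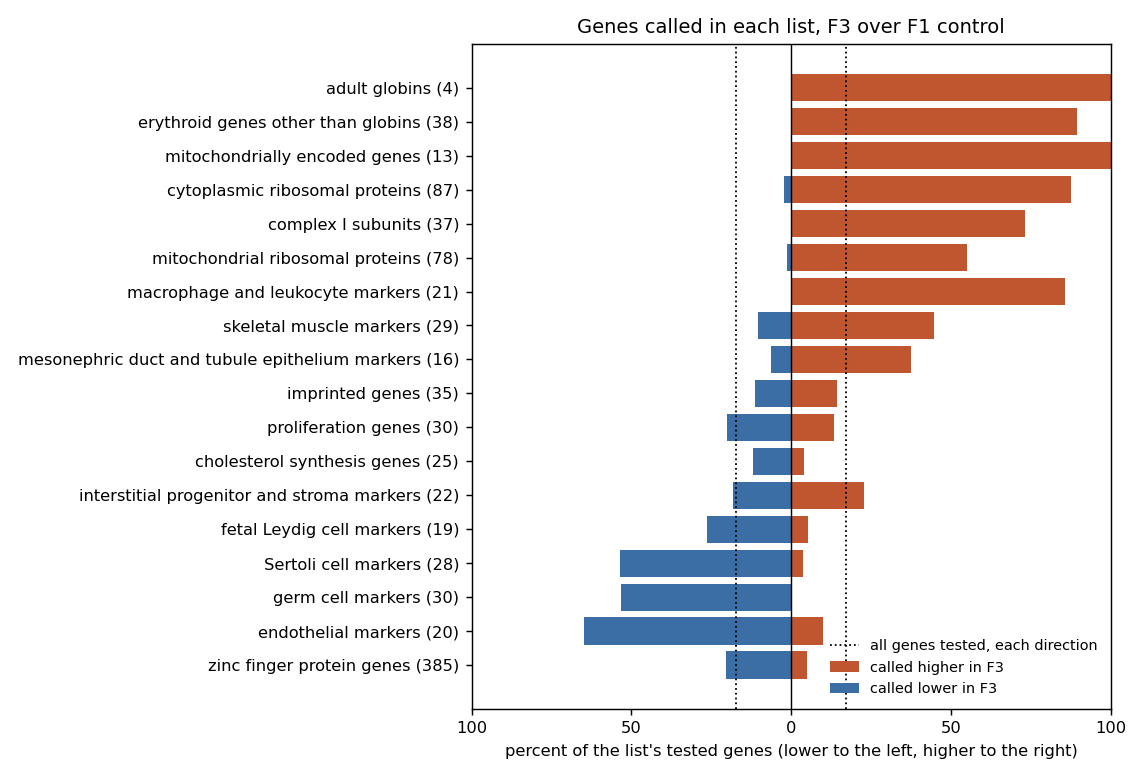
Percent of the tested genes of each list (number tested in brackets) that were called higher in F3 control (to the right) or lower (to the left), with dotted lines at 17.2%, the share over all genes tested. Bars of the globin, erythroid, mitochondrial and macrophage lists pass the line to the right, and those of the Sertoli, germ cell and endothelial lists pass it to the left.

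The difference between the generations was ordered by transcript length. Among 314 genes with transcripts under 500 bases 32.5% were higher in F3 and 5.10% lower, with a median log2 fold change of 0.38. Among 1260 genes from 500 to under 1000 bases 41.1% were higher and 2.54% lower (median 0.43). In the middle, among 6904 genes from 2000 to under 4000 bases, 996 were higher and 1072 lower (median −0.02). For 813 genes of 8000 bases or more the shares were reversed, 3.94% higher and 45.6% lower (median −0.35). The order was the same without the globin, erythroid, ribosomal protein and respiratory chain genes, with medians of 0.32 under 500 bases and −0.36 at 8000 or more. Each library showed its part of it: the slope of its deviation from the mean of the 6 libraries (log2 CPM) on log2 length was 0.068, 0.084 and 0.153 in F1 and −0.134, −0.069 and −0.102 in F3. GC content showed no such order between groups, with medians of −0.05 to 0.03 across bins, although F1 control replicate 3 alone was higher by 0.29 for genes under 40% GC and lower by 0.14 at 60% or more. By gene class, 33.6% of the 119 processed pseudogenes were higher, against 18% of the protein-coding genes. After the length trend was removed within each library, 5434 genes were called, of which 4197 had been called before (65.7% of those). Among the genes called before, 137 now had a fold change of the other sign.

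**Figure D4:**
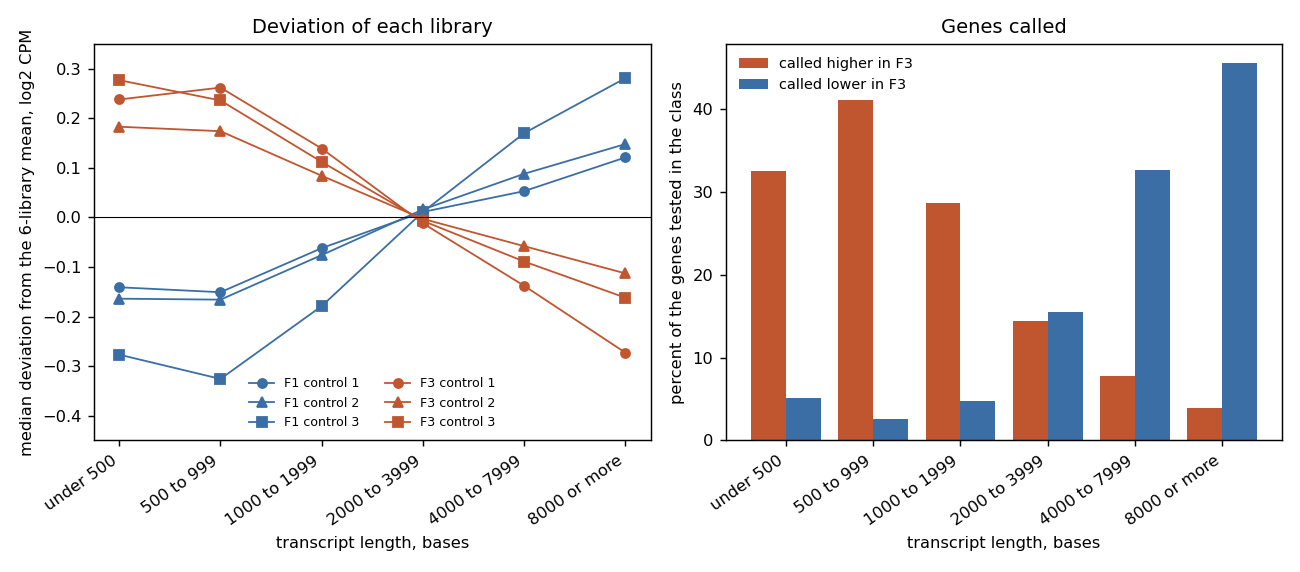
Left, median deviation of each library from the mean of the 6 libraries (log2 CPM), and right, percent of genes called higher and lower in F3, both by class of transcript length in bases. The 3 F3 lines fall and the 3 F1 lines rise with length, crossing at 2000 to under 4000 bases.

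Genes of the Sertoli cell, which directs the making of the testis, were lower in F3. Of 28 markers 15 fell and 1 rose, with a median of −0.39, and leaving out single libraries gave 13 to 17 that fell. *Amh*, the hormone that removes the female duct (chromosome 10, 80805243 to 80807648), fell from 765, 657 and 622 CPM in F1 to 170, 264 and 181 CPM in F3 (−1.73 ± 0.17, adjusted p = 0.000216). *Sox9*, the transcription factor that sets Sertoli fate, fell from 36.5, 42.9 and 52.6 to 13.6, 19.3 and 14.7 CPM (−1.47 ± 0.17, adjusted p = 0.000392). *Ptgds*, a prostaglandin D synthase that sustains *Sox9*, fell from 115, 117 and 98.2 to 32.1, 47.2 and 33.1 CPM (−1.56 ± 0.15, adjusted p = 0.000228). The highest F3 library lay below the lowest F1 library for all 3. *Dmrt1* (−1.05), *Dhh* (−0.85), *Inhbb* (−0.94), *Gata4* (−0.79) and *Nr5a1* (−0.63) fell too. *Wt1*, a factor of both Sertoli and coelomic epithelial cells, was stable at a mean of 164 CPM in F1 and 186 CPM in F3, as was the junction gene *Cldn11*. *Fgf9* was the member that rose (0.59). With the length trend removed 19 Sertoli markers were lower.

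Germ cell genes were lower in part. Of 30 markers 16 fell, none rose, and the median was −0.66, with 11 to 18 lower on leaving out single libraries and 19 lower with the length trend removed. *Dnd1*, an RNA-binding factor that protects germ cells, fell from 152, 163 and 136 to 50.9, 52.9 and 44.0 CPM (−1.61 ± 0.11, adjusted p = 0.000108). *Sall4*, a factor of undifferentiated germ cells, fell from 32.6, 56.9 and 41.2 to 15.0, 14.6 and 9.84 CPM (−1.73 ± 0.22, adjusted p = 0.000629). *Mael*, which acts in piRNA production, was stable, at 293, 401 and 323 CPM in F1 and 376, 319 and 263 CPM in F3. The germ cell genes differed among themselves, and *Pou5f1* (−0.22), *Dnmt3l* (−0.28) and *Mov10l1* (−0.22) were not called. Genes that fall and genes that rise in male germ cells around this stage were both lower in part. Of the genes that normally fall from E13.5 to E16.5, 9 of 15 were lower (median −0.59), among them *Sox2*, from 3.24, 3.33 and 4.42 to 1.39, 0.403 and 0.348 CPM (−2.38 ± 0.44, adjusted p = 0.00351), and *Nodal* (−2.21). Of those that normally rise, 7 of 15 were lower (median −0.48), among them *Nanos2*, the male fate factor, from 4.96, 7.34 and 4.93 to 1.94, 0.913 and 0.348 CPM (−2.45 ± 0.46, adjusted p = 0.00351), and *Piwil4*, from 85.9, 204 and 191 to 69.6, 51.8 and 47.5 CPM (−1.51 ± 0.28, adjusted p = 0.00356). No member of either list was higher.

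Since CPM is a share of the library, the levels of blood genes were set beside those of the testis markers. The summed level of the Sertoli markers was 3557 to 3904 CPM in F1 and 2342 to 2970 CPM in F3, that of the germ cell markers 2516 to 3496 and 1497 to 2328 CPM, and that of the adult globins 4956 to 14600 and 60010 to 64260 CPM. With the globin, erythroid and mitochondrially encoded genes left out before scaling, an alternative added after the data had been seen, the test called 6363 genes, of which 6326 were among the calls above. TMM already trims genes of extreme fold change, so this setting bears on the scaling only, and the part of a larger share of blood RNA in the lower testis markers was not tested.

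Most fetal Leydig cell genes were not called. Of 19 markers 1 rose and 5 fell, with a median of −0.24. The shares were 5.26% and 26.3%, against 17.2% in each direction over all genes tested. *Cyp17a1*, which makes androgen precursors, was at 1484, 1350 and 1199 CPM in F1 and 877, 1681 and 1449 CPM in F3 (−0.01 ± 0.20, adjusted p = 0.975). *Insl3*, the hormone of testis descent, fell from 184, 169 and 135 to 55.02, 90.3 and 85.3 CPM (−1.08 ± 0.18, adjusted p = 0.00213). *Hsd3b6*, a 3β-hydroxysteroid dehydrogenase, rose from 1.35, 3.59 and 1.21 to 16.2, 7.89 and 16.3 CPM (2.66 ± 0.42, adjusted p = 0.00165). The steroidogenic genes *Cyp11a1* (−0.31), *Star* (−0.40) and *Hsd3b1* (−0.17) were not called. Of 25 genes of cholesterol synthesis, the source of steroids, 17 were stable, 1 rose and 3 fell (median −0.12). The stable share was 68%, against 29.1% over all genes tested and 50.3% to 51.9% over those at 20 to 1000 CPM.

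Stromal and peritubular genes moved in both directions. Among 22 interstitial markers 5 rose and 4 fell (median −0.04, a sign that flipped with the length trend removed). Their shares, 22.7% higher and 18.2% lower, were near the 17.2% in each direction over all genes tested. The collagens *Col1a1* (0.77) and *Col1a2* (0.55) rose while *Col3a1* was stable, and the Hedgehog targets *Ptch1* and *Hhip* fell. *Ptch1*, the Hedgehog receptor, was at 129, 144 and 145 CPM in F1 and 80.0, 99.1 and 91.9 CPM in F3 (−0.62 ± 0.10, adjusted p = 0.00199). *Gli1*, another Hedgehog target, missed the threshold (−0.38). Among 15 peritubular and smooth muscle markers 5 rose and 5 fell (33.3% each). *Tagln*, a marker of contractile cells, rose from 187, 190 and 191 to 587, 512 and 430 CPM (1.43 ± 0.12, adjusted p = 0.000131), and *Rgs5*, a pericyte gene, fell from 44.4, 38.6 and 46.9 to 16.4, 29.3 and 21.6 CPM (−0.94 ± 0.18, adjusted p = 0.00405).

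Endothelial genes were lower, against the direction of the blood genes. Of 20 markers 13 fell and 2 rose, with a median of −0.56. *Cdh5*, the cadherin of vessel junctions, fell from 83.9, 67.5 and 85.3 to 27.8, 36.0 and 37.1 CPM (−1.23 ± 0.13, adjusted p = 0.000335). *Pecam1*, which germ cells also express, fell from 55.9, 50.3 and 58.6 to 20.6, 27.4 and 24.4 CPM (−1.19 ± 0.12, adjusted p = 0.000254). *Kdr*, the receptor of VEGF, did not pass (0.25 ± 0.11, adjusted p = 0.106), and *Lyve1*, which macrophages and lymphatic vessels express, rose (1.37). Without F1 control replicate 1 only 8 endothelial markers were lower, and without F3 control replicate 1 or 2 only 9.

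Immune cell genes were higher. Of 21 macrophage and leukocyte markers 18 rose and none fell (median 1.41), and their summed level was 129 to 160 CPM in F1 and 344 to 574 CPM in F3. *Lyz2*, the lysozyme of macrophages and neutrophils, rose from 19.9, 14.2 and 19.1 to 64.6, 53.1 and 78.5 CPM (1.89 ± 0.17, adjusted p = 0.000171). *S100a8*, a neutrophil calcium-binding protein, rose from 7.91, 5.58 and 8.91 to 34.5, 35.7 and 50.2 CPM (2.44 ± 0.20, adjusted p = 0.000131). The complement genes *C1qa* (1.48), *C1qb* (1.23) and *C1qc* (1.41), made by tissue macrophages, and the macrophage receptor *Csf1r* (1.28) rose as well. A list of 17 neutrophil and mast cell genes, written after their values had been seen, rose in all members, with *Cpa3*, the carboxypeptidase of mast cells, from 1.54, 1.32 and 0.913 to 10.6, 9.24 and 16.6 CPM (3.24 ± 0.27, adjusted p = 0.000144).

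Genes of neighbouring or distant tissues were measured too. A list of 31 hepatocyte genes, also written after their values were seen, held 22 that rose (median 1.89). Their summed level was 678, 198 and 304 CPM in F1 and 832, 631 and 2866 CPM in F3, so that F3 control replicate 3 stood apart. *Apoa2*, an apolipoprotein, was at 6.62, 1.76 and 3.29 CPM in F1 and 20.3, 12.5 and 73.1 CPM in F3 (3.19 ± 0.67, adjusted p = 0.00594). Among genes of at least 5 CPM whose groups did not overlap, *Fabp1*, the liver fatty acid-binding protein, had the largest log2 fold change, 3.57 ± 0.72 (adjusted p = 0.00505), with 1.68, 0.537 and 0.621 CPM in F1 and 5.98, 3.68 and 24.5 CPM in F3. The F3 range of these genes is therefore set by 1 library. Without F3 control replicate 3 the median of the list was 1.07 and 17 members rose, without F1 control replicate 2 16 rose, and without F1 control replicate 3 9 rose. *Alb*, albumin, had mean levels of 112 CPM in F1 and 333 CPM in F3 and was not called (1.57).

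Epithelial genes were higher in F3 in a narrower set. Of 16 markers of the mesonephric duct and tubules 6 rose and 1 fell, led by the keratins. *Krt19* rose from 38.3, 39.9 and 25.7 to 114, 116 and 113 CPM (1.72 ± 0.15, adjusted p = 0.000156), and *Krt7* from 41.0, 34.6 and 28.9 to 115, 97.7 and 96.7 CPM (1.56 ± 0.13, adjusted p = 0.00015). The factors of the duct itself, *Pax2* (−0.26), *Pax8* (0.39) and *Lhx1* (0.32), were not called. Both keratins are also expressed by the mesothelium that covers the gonad, and in a list of 11 mesothelial genes written after their values were seen 9 rose, among them *Upk3b* (1.60) and *Msln* (2.07).

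Markers of skeletal muscle, adrenal and nerve, and ovary were called in part. The shares that rose were 44.8%, 27.8% and 25%, and those that fell 10.3%, 11.1% and 0%. Over all genes tested the share was 17.2% in each direction. Of 29 muscle markers 13 rose and 3 fell, but only 6 rose without F1 control replicate 3, 7 without F1 control replicate 2 and 8 without F3 control replicate 3. *Tnni2*, a fast troponin, was at 3.07, 1.90 and 1.72 CPM in F1 and 7.58, 5.16 and 13.7 CPM in F3 (1.97 ± 0.36, adjusted p = 0.00313). Of 18 adrenal and nerve markers 5 rose and 2 fell, with *Hand2*, a factor of sympathetic neurons and mesenchyme, at 19.8, 17.5 and 17.2 CPM in F1 and 38.3, 38.2 and 34.5 CPM in F3 (1.03 ± 0.10, adjusted p = 0.000233). Among 12 ovarian markers 3 rose and none fell. *Rspo1*, a secreted enhancer of WNT signalling in the ovary that the coelomic epithelium also makes, rose from 23.9, 21.6 and 19.5 to 67.3, 53.9 and 49.0 CPM (1.39 ± 0.13, adjusted p = 0.000216). The WNT ligand gene *Wnt4* was stable at a mean of 60.2 and 50.5 CPM. The granulosa factor *Foxl2*, the last of the 3, lay at 0.471, 0.455 and 0.694 CPM in F1 and 2.53, 0.564 and 2.60 CPM in F3, with overlap, and its call was lost without any of 4 single libraries.

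Cell cycle genes were mostly stable. Of 30 proliferation genes 18 (60%) were stable, 4 (13.3%) rose and 6 (20%) fell (median 0.02). Over all genes tested 29.1% were stable and 17.2% were called in each direction. Stability depended on level, and 50.3% of all genes at 20 to 100 CPM and 51.9% at 100 to 1000 CPM were stable. *Ccna2* (0.05), *Cdk1* (−0.05), *Aurkb* (−0.01), *Mcm6* (0.07) and *Plk1* (0.08) kept their levels within the margin. Those that fell included *Mki67*, the proliferation antigen, from 128, 117 and 132 to 37.2, 71.4 and 54.4 CPM (−1.21 ± 0.19, adjusted p = 0.0017), *Cenpf* by 1.35 and *Cenpe* by 1.44 on the log2 scale. These 3 transcripts are long, at 10061, 11130 and 7910 bases, and 45.6% of all genes of 8000 bases or more were lower. Over the alternatives their smallest log2 fold changes were −0.857, −0.969 and −1.149.

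Imprinted genes, expressed from 1 parental allele and reprogrammed in germ cells, were called in 9 of 35 cases, 5 higher and 4 lower (median 0.08). These shares, 14.3% and 11.4%, were below the 17.2% in each direction over all genes tested. *H19*, a growth-restraining RNA, rose from 1951, 1485 and 1979 to 3468, 3084 and 5311 CPM (1.13 ± 0.20, adjusted p = 0.00263). *Igf2*, its reciprocally imprinted neighbour and a growth factor, rose from 1402, 1148 and 1225 to 1638, 1615 and 2078 CPM (0.50 ± 0.13, adjusted p = 0.0137). *Cdkn1c*, an inhibitor of the cell cycle, rose from 255, 185 and 198 to 583, 454 and 824 CPM (1.54 ± 0.20, adjusted p = 0.000771). In all 3, F3 control replicate 3 was the highest library. *Peg10* fell from 106, 105 and 130 to 44.6, 44.6 and 57.7 CPM (−1.21 ± 0.13, adjusted p = 0.000323). *Mest*, *Peg3*, *Plagl1*, *Grb10* and *Meg3* were stable.

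Stress genes were counted in 4 lists. Of 31 immediate early genes 4 rose and 6 fell (median 0.11), and of 17 heat shock genes 2 rose and 4 fell (median −0.13). The shares were 12.9% and 19.4%, and 11.8% and 23.5%, against 17.2% in each direction over all genes tested. *Hsp90ab1*, the constitutive HSP90, stayed within the margin, at 2987, 2866 and 3012 CPM in F1 and 2998, 2888 and 2987 CPM in F3 (0.00 ± 0.09, adjusted p = 0.991), whereas *Hsph1* fell (−0.78) and the small heat shock protein gene *Cryab* rose (1.42). Of 29 hypoxia response genes 14 (48.3%) rose and 4 (13.8%) fell (median 0.31), against the same 17.2% in each direction. Only 8 rose without F1 control replicate 2 or without F3 control replicate 3. *Bnip3l*, a receptor for the removal of mitochondria that red cells also use, rose from 270, 244 and 258 to 485, 501 and 503 CPM (0.95 ± 0.09, adjusted p = 0.000179). Among 20 metallothionein and oxidative stress genes 10 (50%) rose and 2 (10%) fell, with 6 that rose without F3 control replicate 3. *Gpx1*, a glutathione peroxidase abundant in red cells, rose from 288, 202 and 153 to 838, 694 and 959 CPM (1.96 ± 0.21, adjusted p = 0.000335).

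Of 22 interferon response genes 9 (40.9%) rose and 2 (9.09%) fell, against 17.2% in each direction over all genes tested. Without F1 control replicate 2 only 2 rose, and without F3 control replicate 1, 2 or 3 only 3, 4 or 5. *Rsad2*, viperin, was the largest rise of the list, from 7.42, 4.31 and 4.93 to 41.2, 33.4 and 44.1 CPM (2.83 ± 0.20, adjusted p = 0.000108). *Isg20*, an exonuclease that interferon induces and red cell precursors also express, is not in the list and was named among the 10 largest rises. Its level rose from 5.21, 2.75 and 1.90 to 33.2, 29.2 and 40.6 CPM (3.35 ± 0.30, adjusted p = 0.000171). The common response genes *Ifit1* (0.16), *Oas1a* (0.24) and *Mx1* (−0.63) were not called.

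Some small and nuclear RNAs fell the most. *Rn7s2*, the RNA of the signal recognition particle, fell from 13.3, 8.16 and 8.40 to 1.02, 0.779 and 0.590 CPM (−3.65 ± 0.28, adjusted p = 0.000113), and its near-identical copy *Rn7s1* fell by 3.76 on the log2 scale. *Malat1*, a nuclear long RNA, fell from 226, 129 and 188 to 73.2, 68.9 and 95.3 CPM (−1.19 ± 0.20, adjusted p = 0.00186), while *Neat1* (−0.12) was not called and *Meg3* was stable. Of 11 non-polyadenylated or nuclear long RNAs 5 fell and none rose (median −0.85). These 5 are 45.5%, against 17.2% in each direction over all genes tested. Of 23 small nucleolar and Cajal body RNAs 2 (8.7%, below that share) fell, *Scarna9* (−3.58) and *Snord2* (−1.27), at levels of about 1 CPM or less. Whether RNA was selected by its poly(A) tail was not given in the sources used here. Of 20 host genes of small nucleolar RNAs 8 (40%) rose and 5 (25%) fell. *Gas5*, a host gene, rose from 54.4, 54.0 and 54.1 to 139, 125 and 160 CPM (1.38 ± 0.10, adjusted p = 0.000111). Of 385 zinc finger genes 19 (4.94%) rose and 79 (20.5%) fell (median −0.13), and 178 (46.2%) were stable. The share that fell was near the 17.2% over all genes tested, of which 29.1% were stable.

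Several protein-coding genes outside the lists also fell by large factors. *Tomm34*, a cochaperone of mitochondrial import, fell from 70.7, 99.5 and 93.2 to 13.8, 16.6 and 18.98 CPM (−2.41 ± 0.16, adjusted p = 0.000108). *Rest*, the repressor of neuronal genes, fell from 36.4, 45.4 and 53.7 to 7.64, 10.7 and 8.23 CPM (−2.34 ± 0.17, adjusted p = 0.000108). *Sesn2*, a sestrin that responds to amino acid shortage, fell from 26.4, 38.2 and 27.7 to 7.80, 9.05 and 7.99 CPM (−1.90 ± 0.16, adjusted p = 0.000134). These genes were named from called genes whose groups did not overlap, so their lack of overlap is part of that choice and not a further result. *Sema4d*, *Gldn* and *Trank1* fell by 1.93, 1.77 and 1.76 on the log2 scale. In a list of *Xist* and 8 Y-linked genes 3 were lower, *Uba1y* (−0.97), *Usp9y* (−1.05) and *Zfy1* at under 0.4 CPM, whereas *Eif2s3y* and *Kdm5d* were stable.

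The stable genes were of middle to high expression. The share of stable genes was 0% under 1 CPM, 3.18% at 1 to 5, 27.9% at 5 to 20, 50.3% at 20 to 100 and 51.9% at 100 to 1000 CPM, and 19.8% at 1000 CPM or more. At low levels the intervals are wide, so that a gene outside the stable set there is not shown to differ. Of the 12138 genes of at least 5 CPM, 5308 were stable. The smallest log2 fold changes with the narrowest spread included *Cdc42se1*, an effector of CDC42, at 80.3, 80.8 and 75.2 CPM in F1 and 77.7, 80.5 and 78.4 CPM in F3. *Rbm17*, a splicing factor, was at 88.9, 88.2 and 96.5 against 91.2, 89.4 and 93.1 CPM. *Hacd2*, an enzyme of long-chain fatty acid synthesis, was at 47.4, 46.4 and 48.8 against 46.8, 48.9 and 47.5 CPM. The kinase gene *Stk11* and the histone variant gene *H2afy* were among the 10 genes as well. *Ppa1*, the inorganic pyrophosphatase, was the exception under another setting: it was at 87.9 to 89.8 and 84.8 to 91.0 CPM, but with the length trend removed its log2 fold change was −0.31 (adjusted p = 0.0145, with 0.0145 to 0.983 over its alternatives).

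Genes commonly used as references were not all stable. Of 20, 10 rose and 3 fell (median 0.44), and the background shares over all genes were 17.2% each. *Actb*, β-actin, fell from 2081, 1983 and 1921 to 1110, 1229 and 1436 CPM (−0.67 ± 0.11, adjusted p = 0.00207). *Ppia*, cyclophilin A, rose from 833, 813 and 735 to 1313, 1247 and 1352 CPM (0.72 ± 0.09, adjusted p = 0.000693). *Hprt*, of purine salvage, rose from 56.2, 61.5 and 68.5 to 90.3, 85.0 and 100 CPM (0.56 ± 0.10, adjusted p = 0.00319), a call lost with the length trend removed (0.24). The ribosomal references *Rpl13a* (1.26), *Rps18* (1.63) and *Rplp0* (0.83) rose further. *Gusb* (0.02), *Sdha* (0.02) and *B2m* (0.03) were stable, although *B2m* was lower with the length trend removed (−0.39, adjusted p = 0.00842, with 0.00842 to 0.997 over its alternatives). *Gapdh*, listed at only 20.7 to 30.3 CPM, has many processed copies in the genome, which makes its count uncertain.

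The *thia* libraries gave the same generation contrast in tissue that shares no library with the controls. There, the dams of F1 had received 6 mg/kg/day and F3 was bred from their line through the males, so ancestral and direct exposure differ between those generations too. A difference in handling or sequencing between generations may be shared by both contrasts, and it cannot be told apart from generation here either. Of 19016 genes tested, 587 (3.09%) were higher in F3 *thia* than in F1 *thia* and 399 (2.10%) were lower. This count depended on single libraries: without F1 *thia* replicate 1 edgeR called 0 genes, with 4527 genes at an unadjusted p under 0.05, and without F3 *thia* replicate 1 it called 2846. Of the 6351 genes called between the control generations and tested here, 5890 (92.7%) had the same sign, against 65.6% of the genes not called, and 788 were called in both with the same sign and 2 with opposite signs. Across 18384 genes the log2 fold changes correlated at r = 0.705. Among the 198 named genes, 147 were called in controls, 146 of these were tested in *thia*, 139 had the same sign and 62 were also called. The absolute log2 fold change was smaller in *thia* for 119 of the 146. These genes had to be called in the controls, and many were picked there for large changes or small p. Smaller values in other libraries can follow from that choice alone, so the count does not show a weaker difference in *thia*. Differences between the control and *thia* contrasts were not tested.

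By group, the *thia* libraries repeated part of the pattern. All 4 adult globins rose (median 2.30) and 6 of the erythroid genes (median 2.13). *Hba-a1* had a log2 fold change of 2.41 (adjusted p = 0.0413), and *Alas2* of 2.16 (adjusted p = 0.0412). All 13 mitochondrially encoded genes rose (median 1.64), and 24 of the cytoplasmic ribosomal protein genes (median 0.36). *Hbb-y*, in contrast to its values in the controls, was lower in F3 *thia* (−2.10, adjusted p = 0.0432). *Gas5*, which rose in controls, had a log2 fold change of −0.03 in *thia*. *Amh* was lower in every F3 *thia* library without passing the test (−1.11, adjusted p = 0.0732), and *Dnd1* fell (−1.75, adjusted p = 0.0383). Of the hepatocyte genes 23 rose (median 4.24), with F3 *thia* replicate 2 far above the others. *Ttr*, the transthyretin gene, was at 2.23, 8.46 and 3.57 CPM in the F1 *thia* libraries and 53.1, 369 and 46.2 CPM in the F3 *thia* libraries. Muscle markers were called in no case (median −0.56), and the medians by transcript length went from 0.18 and 0.19 in the 2 shortest bins to −0.08 in the longest.

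**Figure D5:**
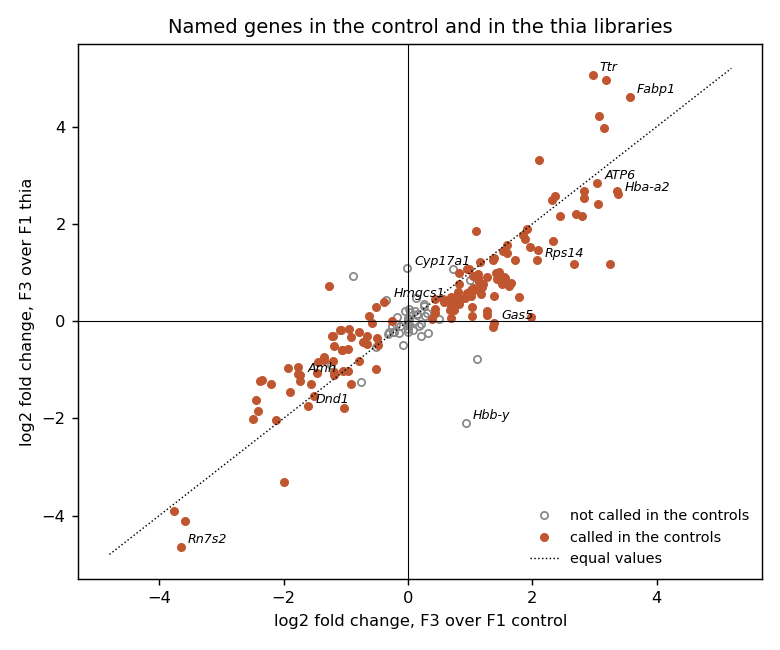
Log2 fold change of F3 over F1 in *thia* libraries (vertical axis) against that in control libraries (horizontal axis) for the named genes tested in both, filled where called in the controls, with a dotted line of equal values. Of the 146 called points 139 have the same sign on both axes, and *Hbb-y* lies at 0.93 in controls and −2.10 in *thia*.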

How the data were processed

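Total RNA of pooled E15.5 testes was sequenced with the NEBNext Ultra II Directional kit as paired-end reads. The authors mapped the reads with HISAT2 2.1.0 to mm10 and counted them per gene of the refGene annotation with featureCounts. They deposited raw counts, without normalization, of 35976 gene symbols. Whether pairs or single reads were counted was not given in the sources used here.

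The 3 F3 control and 3 F1 control libraries were compared in R 4.3.3 with edgeR 4.0.16 (filterByExpr with a minimum count of 10, TMM scaling, quasi-likelihood test, Benjamini-Hochberg adjustment), and SE was derived from that test. An exact permutation test of 3 against 3 could not give a two-sided p below 0.1 and was not used. The F3 *thia* libraries were compared with those of F1 in a separate fit. The stable margin was 0.5 on the log2 scale with a 95% interval. Transcript lengths, GC content and coordinates came from GENCODE M21 (GRCm38), with a length for 94.1% of the genes tested. Trends with length or GC content were removed per library by loess with a span of 0.3. The pipeline was tested on simulated data.

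The libraries, gene lists and tests were chosen with earlier results of these data known, and the hepatocyte, mesothelium and neutrophil and mast cell lists after their values were seen. Named are the 10 genes with the largest rise and fall among called genes of at least 5 CPM without overlap, the 10 highest and the 10 most stable genes, the globins, reference and Y-linked genes, and, of each other list, the member with the highest CPM and up to 3 members with the smallest p. Others named, such as *Slc4a1*, *Klf1*, *Rpl21*, *Igf2* and list members given with a fold change only, were chosen after their values were seen. Alternatives were DESeq2 1.42.0, its size factors, upper quartile scaling, other filters and thresholds, all 12 libraries in one fit, a replicate block, the length and GC trends, and leaving out each library. Some genes that the rule names are not reported here.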

Additional observations from a re-analysis of the deposited data

Results flagged for a closer look

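The libraries of F3 and F1 did not overlap in either condition and lay in opposite order in controls and *thia* for 4 named genes. The difference between the 2 conditions was not tested for any of them, and of the 8 values only that of *Sc5d* in controls passed the edgeR test (adjusted p = 0.0319). *Hmgcs1*, which makes HMG-CoA for cholesterol, had a log2 fold change of F3 over F1 of −0.352 in controls and 0.43 in *thia*. *Sc5d*, a late enzyme of the same pathway, had −0.389 and 0.39. *Ndufv1*, a core subunit of complex I, had 0.326 and −0.237. *Vmn2r57*, a vomeronasal receptor gene at under 1 CPM in the control libraries, had −0.879 and 0.922.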

How the results depend on the processing

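In the control comparison, 1555 genes (1070 higher, 485 lower) changed at least 2-fold, and leaving out 1 library gave 4307 to 5724 called genes, 2191 to 2866 higher and 2116 to 2858 lower. The other settings gave 5434 to 8030 called genes. The fold change of a called gene changed sign only with the length trend removed, for 137 genes, which does not make each a call in the other direction. Among them was *Rpl14-ps1* (−0.029). With the length trend removed *B2m*, not called before, was lower (−0.388). Stable genes numbered 541 at a margin of 0.25 and 12833 at a margin of 1, with 4095 to 5673 on leaving out 1 library. In *thia*, DESeq2 called 3393 genes (1832 higher, 1561 lower), no filter gave 1947 (1143 and 804), all 12 libraries in one fit 3148 (1772 and 1376), the length trend removed 1468 (814 lower), the GC trend removed 1652 (954 lower) and an adjusted p of 0.1 3586 (1943 and 1643). Leaving out 1 *thia* library gave 0 to 2846 genes, 0 to 1392 higher and 0 to 1454 lower. These were 0, 2 and 10 without F1 *thia* replicates 1, 2 and 3, and 2846, 745 and 6 without F3 *thia* replicates 1, 2 and 3, and the cause was not tested. Of the values of the 198 named genes under the alternatives, 2973 kept their direction and call, 83 in 19 genes lost the call, 46 gained it, 31 without a test moved by more than the replicate spread and 2 reversed.

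Replicate numbers did not pair the control libraries: the deviations of same-numbered libraries correlated at −0.073, 0.103 and −0.008, and not every library correlated best with its own number. With the replicate number as a block, 5957 control genes (2970 higher, 2987 lower) and 581 *thia* genes (414 higher, 167 lower) were called and 5147 were stable.

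Pools, not animals, were the replicates, and 3 per generation limit what can be called among low genes. Generation, breeding and handling cannot be told apart.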

Other observations

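Some genes varied widely within a generation. These were chosen after their values were seen. *Trim30c*, a TRIM family gene, was at 0.553, 0.797 and 0.548 CPM in F1 and 63.0, 2.44 and 0.375 CPM in F3, so that 1 F3 library stood apart. *Cst9*, a cystatin gene of Sertoli cells, was at 53.9, 245 and 14.8 CPM in F1 and 208, 189 and 196 CPM in F3. *Rps2* was at 985, 435 and 119 CPM in F1 and 1074, 1104 and 540 CPM in F3, and reads of its processed copies may be assigned to either. The F1 libraries spread more than those of F3 in *Cst9* and *Rps2*. Over all genes tested the median SD of log2 CPM was 0.1715 in F1 and 0.1479 in F3.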
